A study of Mus musculus with 6 samples.

Results

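The insulin-like growth factor (IGF) axis was examined through 10 genes, taken by symbol from the 37761 genes of an RNA sequencing table. The members were the ligand Igf1, the receptors Igf1r and Insr, the binding proteins Igfbp2, Igfbp3, Igfbp4, Igfbp5 and Igfbp7, and the pappalysin proteases Pappa and Pappa2. The list leaves out the imprinted genes of the axis. All 10 symbols were found and all 10 passed the filter on low values. The 3 libraries of embryonic pancreas came from whole organs dissected at e15.5 and the 3 libraries of adult islets from 12-week-old animals whose islets were released with collagenase. All 6 libraries carry the label wild type, and no allele or agent is named for either group. Age, tissue and isolation differ at once here, and their effects cannot be told apart. Whether each library had its own animals is not stated, so every p-value speaks only of library spread, technical spread included.

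As background, IGF1 binds the tyrosine kinase receptor IGF1R, and insulin binds the closely related insulin receptor, INSR. The receptors act through IRS adaptors, PI3K and AKT on growth and metabolism. IGF binding proteins (IGFBPs) hold IGFs away from IGF1R, and pappalysins cut them, which releases the ligand: PAPP-A cuts IGFBP4 and also IGFBP2 and IGFBP5, and PAPP-A2 cuts IGFBP3 and IGFBP5. In the pancreas this axis is known for its part in organ growth and in the mass and function of beta cells.

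Reads assigned to genes ranged from 35059950 to 39713899 for embryonic pancreas and from 41983532 to 47346870 for islets. The insulin genes Ins1 and Ins2 together made up 0.00734 to 0.0128% of assigned reads before birth and 6.02 to 6.87% in the islets, in the direction of the labels. The third embryonic library listed 0 reads set aside for low mapping quality, where the other libraries listed 1264897 to 2083120. Without that library the same number of members, 9, was called. Values below are the authors' normalized counts, that is reads divided by a size factor of each library, with the mean ± SD over n = 3 libraries.

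The axis changed its make-up between the groups. Pappa2, Igfbp7, Igf1r and Igfbp3 rose in the islets, Igfbp2, Igf1, Igfbp4, Pappa and Igfbp5 fell, and Insr was not called. The call required an adjusted p under 0.05 from limma-trend on log2(value + 1), adjusted over all 21653 genes tested. So 9 of 10 members were called, 4 higher and 5 lower, against 72.8% of all genes tested, 36.2% higher and 36.6% lower. The values of 9 of 10 members did not overlap between the groups, against 77.1% of all genes tested. The filter required 10 normalized counts in 3 or more libraries. Igfbp2, at most 2.20 in the islets, passed it only through the embryonic libraries. Its lack of overlap and its direction were therefore fixed by the filter, and the share over all genes includes such genes too. With at least a 2-fold change 8 members remained, against 48.1% of all genes tested. The median log2 fold change was −0.94 over the members and −0.03 over all genes tested, and the median of its size was 3.43 over the members and 0.97 over all genes. In bulk tissue fewer cells of a type and less RNA per cell cannot be told apart, and this holds for every change given here.

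**Figure D1:**
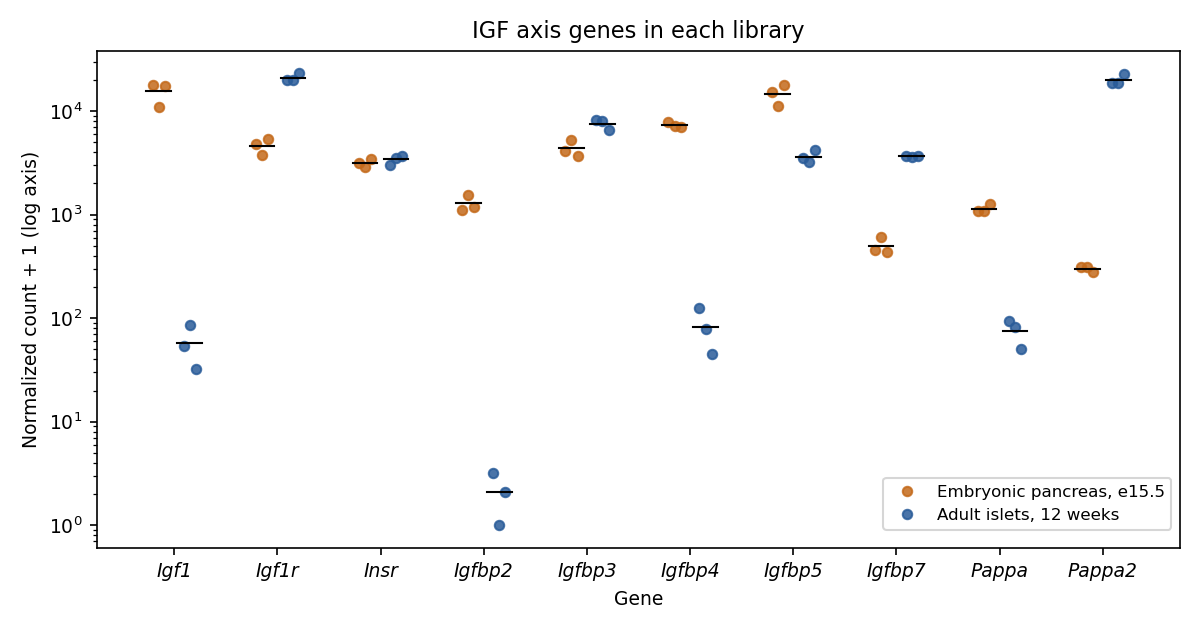
Normalized count + 1 of the 10 members in each library on a log axis, with 3 embryonic pancreas libraries (orange) and 3 adult islet libraries (blue) per gene and a black bar at the mean. The groups stand apart for every gene shown except Insr, and Igfbp2 reaches at most 2.20 normalized counts in the islets.

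**Figure D2:**
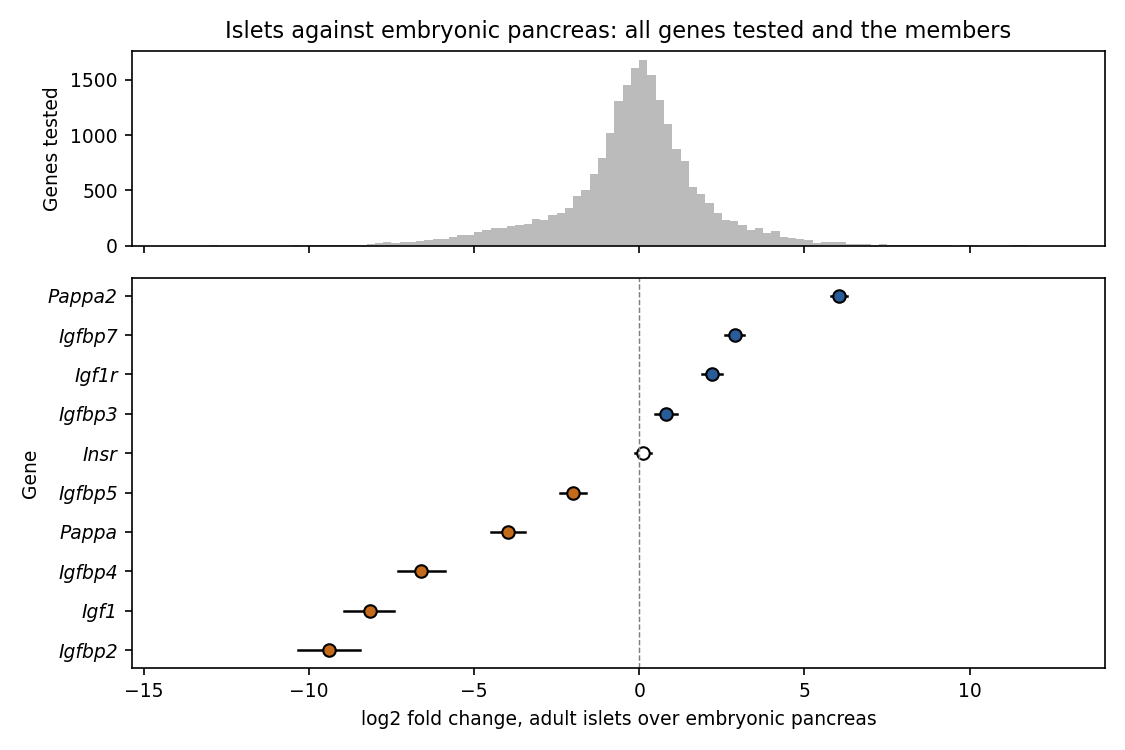
Upper panel: number of genes tested by log2 fold change, adult islets over embryonic pancreas. Lower panel: the fold change of each member with its 95% interval from limma-trend, blue for a rise, orange for a fall and white for not called. The members span −9.40 (Igfbp2) to 6.05 (Pappa2).

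The ligand gene Igf1 was abundant in the embryonic pancreas and low in the islets. It measured 17963, 10927 and 17637 normalized counts in embryonic pancreas against 52.7, 84.3 and 31.1 in the islet libraries. The groups did not overlap, and the second embryonic library was the lowest of its group while the second islet library was the highest of its own. The mean went from 15509 ± 3972 to 56.0 ± 26.7, a 277-fold lower level in the islets (log2 fold change −8.16 with SE 0.33, adjusted p = 8.4e-08 by limma-trend). In the islets the gene rested on 162 reads over the group. Igf1 (ENSMUSG00000020053.18) lies on the plus strand of chromosome 10, 87858265 to 87937042, in GENCODE M21 on GRCm38. Its antisense gene Igf1os, whose exons share no base with those of Igf1, measured 15.4, 13.6 and 38.4 in embryonic pancreas against 0 in each islet library.

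Of the receptors, Igf1r rose and Insr was not called. Igf1r, the receptor for IGF1, measured 4759, 3784 and 5349 in embryonic pancreas against 20088, 20052 and 23169 in the islets. The islet values lay above all embryonic values, with means of 4631 ± 790.3 and 21103 ± 1789 (log2 fold change 2.20 with SE 0.13, adjusted p = 8.9e-07 by limma-trend), a 4.56-fold higher mean. Insr measured 3140.0, 2899 and 3413 in embryonic pancreas against 3021, 3520.1 and 3716 in the islets, so that the groups overlapped. Its log2 fold change was 0.12 (SE 0.10, 95% interval −0.12 to 0.35, limma-trend adjusted p = 0.34). Its sign turned under quantile normalization (−0.15), upper quartile scaling (−0.14) and scaling that left out the 20 most abundant genes of each group (−0.12). No direction is therefore given for it. Igf1r (ENSMUSG00000005533.10) lies on chromosome 7, 67952827 to 68233668, plus strand, and Insr (ENSMUSG00000005534.10) on chromosome 8, 3122061 to 3279617, minus strand.

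Within a library the balance of both receptors does not depend on scaling between libraries. The log2 ratio of Insr to Igf1r was −0.60, −0.38 and −0.65 in embryonic pancreas against −2.73, −2.51 and −2.64 in the islets. Each islet ratio lay below each embryonic ratio, with means of −0.54 ± 0.14 and −2.63 ± 0.11, a 4.24-fold lower ratio in the islets. The two-sided exact permutation test gave p = 0.1, the smallest that 3 against 3 libraries allow, and p = 0.1 adjusted over the 2 ratios tested. Per kilobase of exon Igf1r stood at 1.24, 1.07 and 1.28 times the level of Insr in embryonic pancreas against 5.44, 4.66 and 5.10 times in the islets.

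**Figure D3:**
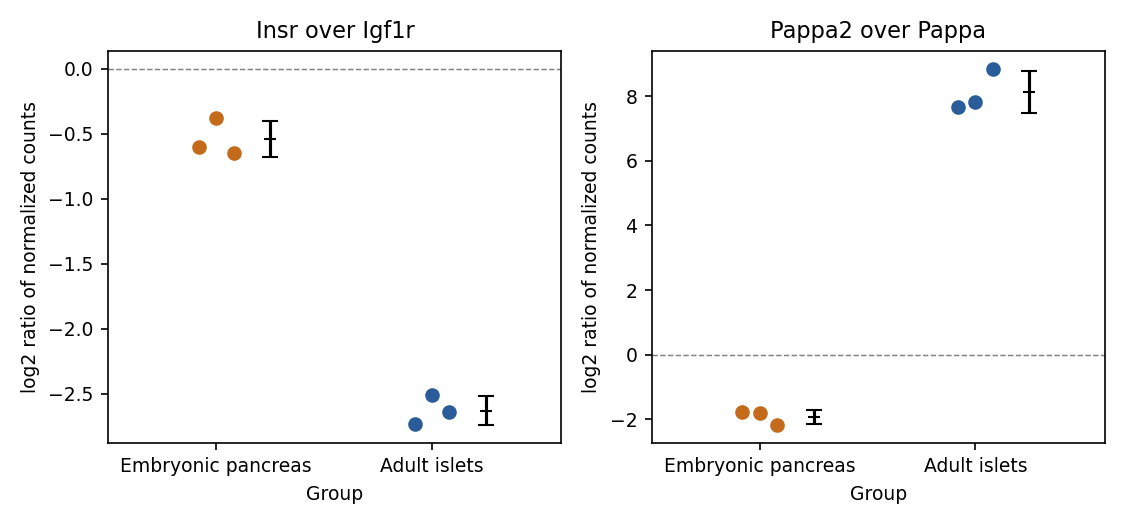
log2 ratio of normalized counts within each library, Insr over Igf1r (left) and Pappa2 over Pappa (right), for 3 embryonic pancreas libraries (orange) and 3 adult islet libraries (blue), with mean and SD in black and a dashed line at 0. Insr stays below Igf1r in all 6 libraries, and Pappa2 goes from below Pappa in the embryonic pancreas to above it in the islets.

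The promoters of 4 members are shown because these genes had the 2 steepest rises (Pappa2, Igfbp7) and the 2 steepest falls (Igfbp2, Igf1) among the members listed in the promoter table. Sequences are from RefSeq on GRCm38.p6, on the strand of the gene, from 250 bases before to 50 bases after an annotated start. For Pappa2 and Igf1 that start lies inside the span that GENCODE gives the gene. Capitals mark matches on either strand to the TATA box letters TATAAA, the CAAT box letters CCAAT and the GC box letters GGGCGG, and none of these motifs holds another.
Pappa2 (chr1:158958126-158958425, minus strand): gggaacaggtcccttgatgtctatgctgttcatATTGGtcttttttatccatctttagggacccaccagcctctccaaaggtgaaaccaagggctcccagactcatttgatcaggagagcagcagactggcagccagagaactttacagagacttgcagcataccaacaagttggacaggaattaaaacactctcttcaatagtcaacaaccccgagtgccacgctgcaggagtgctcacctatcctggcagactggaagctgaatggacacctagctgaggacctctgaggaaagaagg
Igfbp7 (chr5:77407996-77408295, minus strand): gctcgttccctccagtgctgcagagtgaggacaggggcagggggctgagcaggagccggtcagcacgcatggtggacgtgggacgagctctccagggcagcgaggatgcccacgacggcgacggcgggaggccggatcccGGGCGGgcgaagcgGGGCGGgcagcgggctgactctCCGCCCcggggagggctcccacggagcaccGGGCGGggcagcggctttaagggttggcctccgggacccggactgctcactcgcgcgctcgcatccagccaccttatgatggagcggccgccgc
Igfbp2 (chr1:72824230-72824529, plus strand): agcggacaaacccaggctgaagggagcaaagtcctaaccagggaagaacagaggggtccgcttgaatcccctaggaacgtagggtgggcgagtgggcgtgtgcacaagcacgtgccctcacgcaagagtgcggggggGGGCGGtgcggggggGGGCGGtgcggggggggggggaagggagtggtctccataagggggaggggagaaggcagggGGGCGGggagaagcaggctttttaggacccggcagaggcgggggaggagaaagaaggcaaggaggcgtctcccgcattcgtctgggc
Igf1 (chr10:87860861-87861160, plus strand): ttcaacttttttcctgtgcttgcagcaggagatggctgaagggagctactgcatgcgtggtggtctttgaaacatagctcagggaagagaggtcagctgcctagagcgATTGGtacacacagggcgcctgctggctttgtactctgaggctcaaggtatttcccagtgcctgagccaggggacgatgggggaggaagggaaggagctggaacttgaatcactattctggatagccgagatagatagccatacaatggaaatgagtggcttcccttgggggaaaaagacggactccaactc

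Of the 10 members 8 had an entry in the promoter table, which leaves Insr and Pappa. Igfbp2 had 2 entries, and the one nearest the 5′ end of the GENCODE gene was used. The dinucleotide CG occurred between 2 times (Pappa2) and 48 times (Igf1r) in the 8 promoters of 300 bases, against a median of 7 over 32851 promoters of that length. The rising genes Pappa2 and Igf1r thus held the fewest and the most. GGGCGG matched 4 times in Igfbp7, 3 times in Igfbp2 and 2 times in Igf1r, so in 3 of the 8 promoters against 35.7% of all promoters. CCAAT matched once each in Igf1 and Pappa2, against 37.4% of all promoters, and TATAAA once in Igfbp4, against 13.6%. A match is a description of the letters only.

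The binding proteins split, with Igfbp7 and Igfbp3 higher and Igfbp2, Igfbp4 and Igfbp5 lower in the islets. Igfbp7, a secreted protein of vessel walls with weak affinity for IGFs, measured 458, 608 and 434 in embryonic pancreas against 3709, 3574 and 3717 in the islets. Its islet values lay within a narrow band above the embryonic ones, with means of 500.2 ± 94.4 and 3667 ± 80.6 (log2 fold change 2.89 with SE 0.13, adjusted p = 1.3e-07 by limma-trend), a 7.33-fold higher mean. Igfbp7 (ENSMUSG00000036256.13, chromosome 5, 77349240 to 77408041, minus strand) shares 7.0% of its exonic length with the RNA polymerase gene Polr2b, which was not called (log2 fold change 0.10, limma-trend adjusted p = 0.46).

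Igfbp3, which carries most IGF in the blood, measured 4126, 5287 and 3724 in embryonic pancreas against 8183, 8011 and 6559 in the islets. All islet values exceeded all embryonic values, with means of 4379 ± 812 and 7584 ± 892 (log2 fold change 0.80 with SE 0.14, adjusted p = 8.7e-04 by limma-trend), a 1.73-fold higher mean. This was the smallest change among the 9 members called, and its log2 value ranged from 0.50 to 0.95 over the alternatives. Igfbp3 (ENSMUSG00000020427.11) lies on chromosome 11, 7206086 to 7213923, minus strand.

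Igfbp2, a binding protein of fetal tissues, measured 1099, 1561 and 1192 in embryonic pancreas against 2.20, 0 and 1.07 in the islets. These islet values stand for 2, 0 and 1 reads, against 4098 reads over the embryonic group. The ratio of embryonic to islet levels was 1208 (95% counting interval 413 to 5863, counting error only). The fitted log2 fold change of −9.40 (SE 0.41, limma-trend adjusted p = 1.2e-07) depends on the pseudocount and went to −10.94 with 0.1 and to −7.72 with 5. Igfbp2 (ENSMUSG00000039323.18) lies on chromosome 1, 72824503 to 72852474, plus strand.

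Igfbp4, the main substrate of PAPP-A, measured 7856, 7193 and 7018 in embryonic pancreas against 124, 77.3 and 44.0 in the islets. The embryonic values lay close together, and the islet values, all far below them, were more spread for their size. The means were 7356 ± 442 and 81.8 ± 40.3 (log2 fold change −6.59 with SE 0.31, adjusted p = 1.7e-07 by limma-trend), an 89.9-fold lower mean in the islets. Igfbp4 (ENSMUSG00000017493.12) lies on chromosome 11, 99041244 to 99054392, plus strand.

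Igfbp5, a binding protein that also attaches to matrix, measured 15165, 11117 and 17701 in embryonic pancreas against 3508, 3191 and 4203 in the islets. The groups did not overlap, and the gene was still well detected in each islet library. The means were 14661 ± 3321 and 3634 ± 518 (log2 fold change −2.00 with SE 0.17, adjusted p = 8.3e-06 by limma-trend), a 4.03-fold lower mean in the islets. Igfbp5 (ENSMUSG00000026185.8) lies on chromosome 1, 72857932 to 72874884, minus strand.

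Levels per kilobase of exon were then summed over Igfbp1 to Igfbp7, which adds Igfbp1 and Igfbp6 to the members. The sum was 6688, 6657 and 6832 in embryonic pancreas against 6305, 6067 and 5882 in the islets. The embryonic mean was 1.11 times the islet mean (two-sided exact permutation p = 0.1, the smallest possible). The sum counts Igfbp7, with its weak affinity for IGFs, like the other genes, so it is no measure of IGF binding. Without division by length the summed normalized counts were 28308 ± 2170 and 14973 ± 516, a ratio of 1.89, so the size of this difference depends on the lengths used. Igfbp7 took 6.16 ± 1.23% of the sum before birth and 49.9 ± 2.06% in islets, and Igfbp3 took 20.8 ± 4.10% and 39.8 ± 3.60%. Igfbp5 went from 36.2 ± 7.78% to 9.97 ± 1.69%, Igfbp4 from 24.8 ± 1.69% to 0.301 ± 0.139%, and Igfbp2 from 10.3 ± 2.05% to 0.00958 ± 0.00944%. Igfbp6 took 1.48 ± 0.289% and 0.0726 ± 0.0595%, and Igfbp1 0.174 ± 0.108% and 0.00357 ± 0.00619%. The change of the Igfbp1 share, −0.171 percentage points, was −0.109 without the second embryonic library. None of the 7 shares overlapped between groups, and each exact permutation test gave p = 0.1, also after adjustment over the 7 shares. This is the smallest p possible, so the adjustment could not change it. The shares of a library add up to a fixed whole, so a fall in some forces a gain in others. The 7 tests are therefore not independent. Without division by length the gain of Igfbp7 was 22.7 instead of 43.7 percentage points and that of Igfbp3 34.9 instead of 18.9, so the leading binding protein of the islets depends on the length used.

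**Figure D4:**
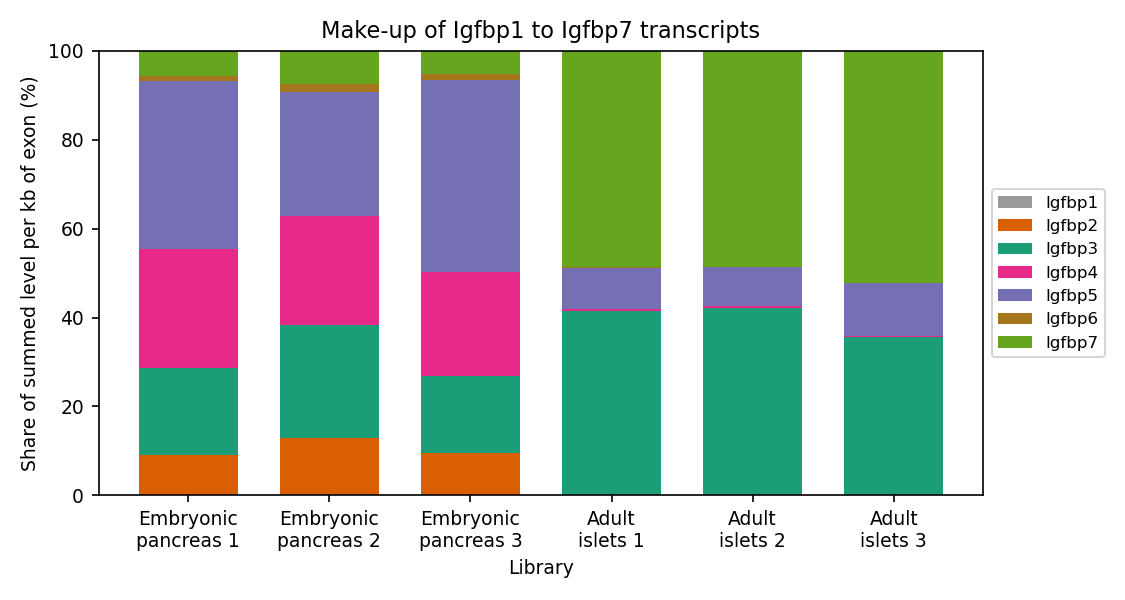
Share of Igfbp1 to Igfbp7 in their summed level per kilobase of exon, in percent, 1 stacked bar per library. Igfbp5, Igfbp4 and Igfbp3 fill most of the bar in the embryonic pancreas, and Igfbp7 and Igfbp3 in the islets.

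The pappalysins moved in opposite directions. Pappa2, the protease of IGFBP3 and IGFBP5, measured 312, 312 and 277 in embryonic pancreas against 18687, 18522 and 22908 in the islets. Both groups were tight and far apart, with means of 300.5 ± 20.1 and 20039 ± 2486 (log2 fold change 6.05 with SE 0.11, adjusted p = 4.1e-09 by limma-trend), a 66.7-fold higher mean in the islets. Its fold change stood at percentile 99.4 of all genes tested. Pappa, the protease of IGFBP4, measured 1078, 1090.4 and 1254 in embryonic pancreas against 92.3, 81.3 and 49.4 in the islets. The islet values were all below the embryonic ones, with means of 1141 ± 98.5 and 74.3 ± 22.3 (log2 fold change −3.97 with SE 0.22, adjusted p = 5.4e-07 by limma-trend), a 15.4-fold lower mean. Pappa2 (ENSMUSG00000073530.11) lies on chromosome 1, 158711727 to 158980490, minus strand, and shares 3.0% of its exonic length with the lincRNA 1600012P17Rik, which measured at most 1.9 in any library. Pappa (ENSMUSG00000028370.7) lies on chromosome 4, 65124174 to 65357509, plus strand.

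The log2 ratio of Pappa2 to Pappa was −1.79, −1.81 and −2.18 in embryonic pancreas against 7.66, 7.83 and 8.86 in the islets. It therefore changed sign, with means of −1.92 ± 0.22 and 8.12 ± 0.65, a shift of 10.04 on the log2 scale (two-sided exact permutation p = 0.1, the smallest possible). Per kilobase of exon Pappa stood at 3.22, 3.26 and 4.22 times Pappa2 in the embryonic libraries, and Pappa2 at 217, 244 and 497 times Pappa in the islets.

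The order of the members per kilobase of exon differed between the groups. In the embryonic pancreas Igfbp5 led with 2441 ± 553 normalized counts per kilobase, followed by Igfbp4 (1666 ± 100.1), Igf1 (1566 ± 401) and Igfbp3 (1399 ± 259). Igfbp4, Igf1 and Igfbp3 overlapped in this order, as did Igf1r (276 ± 47.1) and Insr (229 ± 18.7) further down. Pappa (103 ± 8.93) and Pappa2 (29.2 ± 1.96) came last. In the islets Igfbp7 led with 3033 ± 66.7, followed by Igfbp3 (2423 ± 285) and Pappa2 (1947 ± 242), which overlapped, and by Igf1r (1257 ± 107), Igfbp5 (605 ± 86.2) and Insr (249 ± 26.1). Igfbp4 (18.5 ± 9.12), Pappa (6.74 ± 2.02), Igf1 (5.66 ± 2.70) and Igfbp2 (0.590 ± 0.595) closed the order, with Pappa and Igf1 overlapping. The order depends on the division by length. By normalized counts alone Igf1r (21103 ± 1789) and Pappa2 (20039 ± 2486) led in the islets. Igf1 (15509 ± 3972) and Igfbp5 (14661 ± 3321) then led in the embryonic pancreas, and the genes of each pair overlapped. Among 21324 genes tested with an annotated length, Pappa2 went from percentile 30.3 to 96.8, Igf1 from 96.5 to 12.4 and Insr from 69.9 to 70.3.

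Several members lie beside a relative, so their neighbours on the chromosome were read too. Igfbp2 and Igfbp5 face each other tail to tail 5458 bp apart, and both fell (log2 fold changes −9.40 and −2.00). Igfbp3 and Igfbp1 also face each other tail to tail, 3540 bp apart, and went opposite ways: Igfbp1 measured 12.5, 30.3 and 10.6 in embryonic pancreas against 0, 1.0 and 0 in the islets, with 1 read in the group (ratio 48.7, 95% counting interval 8.38 to 1956). The astrotactin genes, which encode neuronal adhesion proteins, are the nearest tested genes on 1 side of each pappalysin. Astn2, 23294 bp from Pappa, fell with it from 216, 145 and 288 to 17.6, 20.8 and 22.5 (log2 fold change −3.30, limma-trend adjusted p = 8.2e-06). Astn1, 19946 bp from Pappa2, fell from 172, 127 and 200.3 to 104, 81.3 and 84.8 (log2 fold change −0.86, limma-trend adjusted p = 0.0065) while Pappa2 rose. The mitotic topoisomerase gene Top2a, 17055 bp from Igfbp4, fell by 7.80 on the log2 scale.

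For each member the 2 genes with the most similar log2 profile over the 6 libraries were taken, by Euclidean distance after centring, as a description that rests on the contrast of the groups. Ids and Fry lay nearest to Igf1r (distances 0.111 and 0.128), Fam174b and Snx10 to Igfbp7 (0.0999 and 0.103), and Gm42809 and Adh1 to Pappa2 (0.174 and 0.198). Pgm2 and Chmp4b lay nearest to Igfbp3 (0.134 and 0.187), and Gm16853 and Plxna2 to Insr (0.0781 and 0.0870). Among falling members, Colec12 and Sfrp1 lay nearest to Igfbp4 (0.221 and 0.269), Upk3b and Cdh3 to Igfbp2 (0.473 and 0.483), and Frem1 and Nkain4 to Igf1 (0.571 and 0.758). Gm26901 and Pik3c2b lay nearest to Igfbp5 (0.198 and 0.200), and Fam124b and Slc1a2 to Pappa (0.193 and 0.240).

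Other genes of the axis changed in both directions. Of 12 such genes 6 rose and 6 fell, so that 100% were called against 72.8% of all genes tested. The median log2 fold change was 0.03 against −0.03 over all genes tested. Ins2 and Ins1, the insulin genes whose product binds INSR, had log2 fold changes of 9.96 and 9.78. Igf2, the second IGF ligand, fell from 448 ± 60.2 to 2.84 ± 1.35 (log2 fold change −6.92), but 64.5% of its exonic length is shared with other annotated genes, Gm49394 and Igf2os, so its level is uncertain in both groups. The following genes were named after their values were seen. Igfals, the acid-labile subunit that joins IGF and IGFBP3 in the blood, rose from 89.0 ± 22.3 to 2085 ± 105 (log2 fold change 4.56, limma-trend adjusted p = 6.6e-08). Insrr, the orphan relative of both receptors, measured 305, 366 and 325 in embryonic pancreas against 4284, 4761 and 7615 in the islets (log2 fold change 4.02, limma-trend adjusted p = 2.4e-07). Stc1 and Stc2, which encode inhibitors of the pappalysins, had log2 fold changes of 0.85 and −0.78, and Ghr, the growth hormone receptor that drives Igf1 in liver, of 0.86 (limma-trend adjusted p = 8.3e-04, 0.0022 and 1.2e-04).

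Other proteases are known to cut IGFBPs as well. Of 12 genes for such proteases and for proteins related to IGFBPs, 10 were tested. Of these 3 rose and 5 fell while 2 were not called, so that 80.0% were called against 72.8% of all genes tested. The median log2 fold change was −0.98. Under upper quartile scaling 2 rose and 6 fell. Mmp2, a matrix metalloproteinase, fell from 3664 ± 165 to 61.3 ± 38.1 and Htra3, a serine protease, from 750.0 ± 83.0 to 20.03 ± 4.04 (log2 fold changes −6.06 and −5.17). Esm1, a proteoglycan of endothelial cells with an IGFBP-type domain, rose from 128 ± 44.6 to 2977 ± 301 (log2 fold change 4.58, limma-trend adjusted p = 2.3e-07).

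Downstream of the receptors, both directions occurred. Of 21 adaptor and PI3K-AKT genes 11 rose and 5 fell while 5 were not called, so that 76.2% were called against 72.8% of all genes tested, and the median log2 fold change was 0.39. The split was 9 higher and 7 lower under upper quartile scaling. It was 10 and 7 under quantile normalization and when the 20 most abundant genes of each group were left out of the scaling. Shc1, an adaptor toward Ras, rose from 3459 ± 462 to 15967 ± 1998 and Foxo1, a transcription factor held back by AKT, from 649 ± 97.5 to 2394 ± 83.4, while the adaptor gene Irs4 fell from 265 ± 47.7 to 6.28 ± 2.65 (log2 fold changes 2.21, 1.89 and −5.25). Of 12 mTORC1 branch genes 8 rose and 1 fell while 3 were not called, and the median was 0.47, with 75.0% called. This split depended on scaling: 5 rose and 3 fell under upper quartile scaling and 7 and 2 under quantile normalization. With the 20 most abundant genes of each group left out, 6 rose and 3 fell. Over all genes tested, 36.2% were higher and 36.6% lower, and 29.3% and 43.4% under upper quartile scaling. Eif4ebp1, a translation repressor, and Tsc1, a brake on mTORC1, had log2 fold changes of 1.87 and 1.22, and the kinase gene Rps6kb1 had −0.65. Of 12 negative regulators 9 rose and 2 fell while 1 was not called, and the median was 0.85, with 91.7% called against the same 72.8% of all genes. Trib3, a pseudokinase that binds AKT, rose from 27.7 ± 5.07 to 3967 ± 677 and Socs3, an inhibitor of receptor signalling, from 387 ± 28.2 to 2006 ± 447, and Socs1 fell from 84.3 ± 10.3 to 40.6 ± 11.0 (log2 fold changes 7.11, 2.35 and −1.07). Under a requirement of at least a 2-fold change the calls in these 3 lists were 9, 2 and 6 instead of 16, 9 and 11, against 48.1% of all genes tested.

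**Figure D5:**
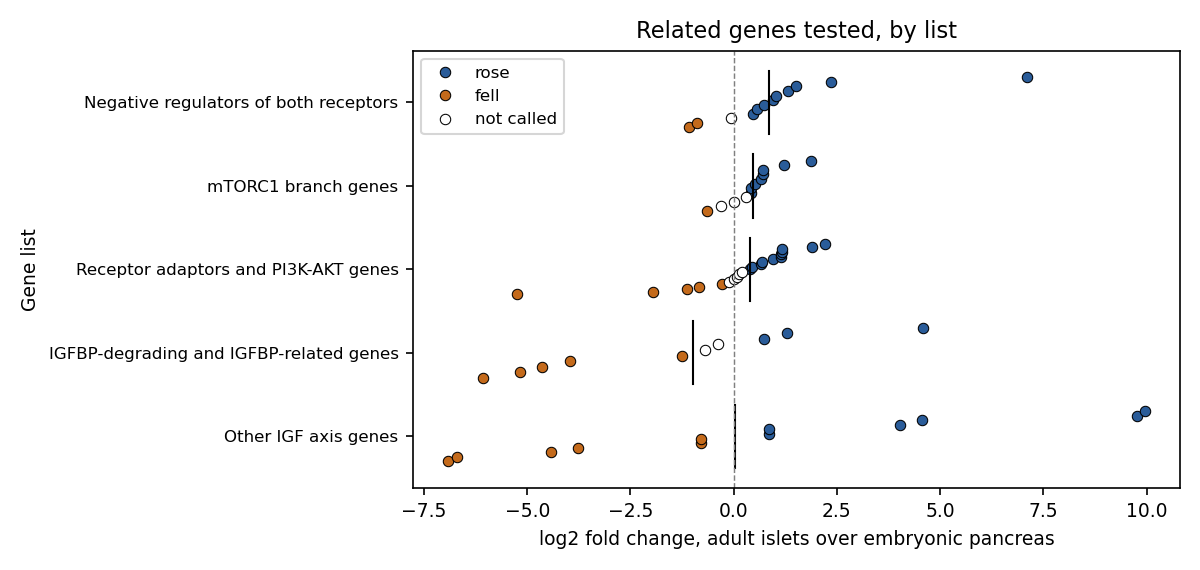
log2 fold change, adult islets over embryonic pancreas, of the tested genes in 5 related lists, blue for a rise, orange for a fall and white for not called, with a black bar at the median of each list. The other axis genes spread from −6.92 (Igf2) to 9.96 (Ins2), and the mTORC1 branch stays between −0.65 and 1.87.

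Markers of cell types also differed between the groups. Among all genes tested, 36.2% were called higher and 36.6% lower in the islets. All 9 mesenchyme markers fell, from 0.445 to 0.580% of assigned reads before birth to 0.00233 to 0.00563% in the islets, with none of the 9 at 0 reads there. Col3a1, for example, a fibrillar collagen gene, went from 98174, 87882 and 89901 normalized counts to 723, 427 and 270.4. Pericyte and smooth muscle markers fell for 7 of 9 genes, from 0.0438 to 0.0619% to 0.00798 to 0.0105%. Macrophage markers fell for 6 and rose for 2 of 9 genes, from 0.0214 to 0.0245% to 0.00595 to 0.00697%. Of 10 endothelial markers 5 fell and 5 were not called, from 0.0451 to 0.0546% to 0.0210 to 0.0283%. All 8 beta cell markers rose, from 0.0169 to 0.0278% to 8.42 to 9.60%, and 4 of 5 alpha and 3 of 4 delta cell markers rose, with 1 delta marker at 0 in the embryonic libraries. Erythroid markers fell for 7 of 7 genes, with 3 at 0 in the islets, duct markers rose for 4 and fell for 3 of 8, and markers of neurons and Schwann cells rose for 2 and fell for 5 of 7. Of 9 acinar markers 7 rose, 1 fell and 1 was not called, with log2 fold changes from −6.91 (Rbpjl) to 11.53 (Pnlip). Together the acinar markers took 0.285 to 0.341% in embryonic pancreas against 0.841, 1.65 and 0.623% in the islet libraries. The part of these cells in the changes of the members was not tested.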

How the data were processed

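RNA was profiled in 3 libraries of e15.5 whole pancreas and 3 of adult islets. The submitters' processing notes name build mm10 and the tools TopHat 1.3.2, CASAVA 1.8.2, DESeq2 and Cufflinks 1.2.1. For the read counter, gene annotation and strand setting, the answer is not given in the sources used here. Each library has 1 deposited signal column, whose header names no unit. From its values it was read as normalized counts, that is reads divided by a size factor. Per the file headers, the authors' deposited table also holds their log2 fold change, linear fold ratio, test score and p-value. There, in the authors' deposited table, 9 of 10 members pass at an adjusted p under 0.05, and Insr has 0.447. Entries naming no gene, 5 in number, held 40.8 to 54.6% of reads and were left out.

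All values up to 1000 reads were whole multiples of a step per library within 0.01 reads (100% of values), so reads could be recovered. In the second islet library the step of 0.992 lies near 1, but its values are not whole numbers, such as 84.283 for the 85 reads of Igf1. Depth was 35059950 to 47346870 assigned reads. Members rested on 3 to 60103 reads per group, and counting intervals (exact, 95%) cover counting error only.

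Genes reaching 10 normalized counts in 3 or more libraries were tested with limma-trend (R 4.3.3, limma 3.58.1) on log2(value + 1). P-values were adjusted by Benjamini and Hochberg. The fold change scale understates low genes. Ratios and shares were compared by exact permutation. The fit was tested on simulated data. Positions and exon lengths came from GENCODE M21 on GRCm38, the build mm10, by gene name (97.8% of genes matched a unique name). A level per kilobase uses all annotated exons of a gene, which need not be those transcribed. Alternatives were other pseudocounts, filters and scalings, limma-voom, a replicate block, a 2-fold requirement and leaving out each library. EdgeR 4.0.16 and DESeq2 1.42.0 on recovered reads were added after the data were seen. Members, lists and tests were chosen with earlier results of these data known. All 10 members are named, with 2 genes of each related list in the direction of most calls and 1 in the other by steepest change, the 2 nearest profiles of each member, and overlapping or adjacent genes. Python 3.11.15, pandas 2.3.3 and SciPy 1.17.1 were used.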

Additional observations from a re-analysis of the deposited data

How the results depend on the processing

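Over 18 alternatives the 9 members called kept their direction and stayed under an adjusted p of 0.05, except that Igfbp3 (log2 fold change 0.80) lost its call when a 2-fold change was required, which left 8 members. Insr was called under none and turned sign under quantile normalization (−0.15), upper quartile scaling (−0.14) and scaling without the 20 most abundant genes (−0.12). Upper quartile scaling and scaling without the most abundant genes shifted the all-gene median of the log2 fold change from −0.03 to −0.28 and −0.26. A 2-fold requirement reduced the calls among adaptor and PI3K-AKT genes from 16 to 9, among mTORC1 branch genes from 9 to 2 and among negative regulators from 11 to 6. Without division by length the changes in share of the summed IGFBP level were −0.0629 (Igfbp1), −4.59 (Igfbp2), 34.9 (Igfbp3), −0.362 (Igfbp6) and 22.7 (Igfbp7) percentage points, against −0.171, −10.3, 18.9, −1.41 and 43.7, and the log2 ratio of the summed level, embryonic over islets, was 0.92 against 0.14 (chosen after seeing the data). On leaving out each library, the shift of the Insr to Igf1r ratio ranged from −2.14 to −2.00 and that of Pappa2 to Pappa from 9.67 to 10.27. With the replicate block 9 members were called. Deviations from the group mean correlated by 0.0369, 0.0775 and 0.0054 between same-numbered libraries. Between libraries of different numbers they correlated by −0.0763 to 0.048. With so few libraries of different tissues, these values cannot decide whether the numbers pair samples. Low counts limit Igfbp2 and Igfbp1 in the islets, which had 3 and 1 reads.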

Other observations

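The spread between islet libraries differed from member to member. The coefficient of variation over the islet libraries was 101% for Igfbp2, which rested on 3 reads, 49.2% for Igfbp4, 47.7% for Igf1, 30.0% for Pappa, 14.2% for Igfbp5, 12.4% for Pappa2, 11.8% for Igfbp3, 10.5% for Insr, 8.48% for Igf1r and 2.2% for Igfbp7. Igfbp4 and Pappa, which fell, and Igfbp3, which rose, were highest in the first islet library (124, 92.3 and 8183 normalized counts). All of them were lowest in the third islet library (44.0, 49.4 and 6559). The summed markers of several cell types had the same order over these libraries, namely mesenchyme (0.00563, 0.00344 and 0.00233% of assigned reads), pericytes and smooth muscle (0.0105, 0.0101 and 0.00798%), endothelial cells (0.0283, 0.0263 and 0.0210%), macrophages (0.00697, 0.00664 and 0.00595%) and erythroid cells (0.000772, 0.000501 and 0.000471%). Markers of neurons and Schwann cells (0.00657, 0.00551 and 0.0054%) and of alpha cells (2.36, 2.23 and 2.04%) did too. Those of beta cells (9.08, 8.42 and 9.6%), delta cells (0.132, 0.134 and 0.117%), acinar cells (0.841, 1.65 and 0.623%) and duct cells (0.135, 0.152 and 0.12%) did not. Igf1 had another order, at 52.7, 84.3 and 31.1 normalized counts. Igf1r, Insr, Igfbp5, Igfbp7 and Pappa2 were instead highest in the third islet library (23169, 3716, 4203, 3717 and 22908). Igfbp2 had too few reads for an order. These values were picked after they were seen, and no test was made.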
